A study of Mus musculus with 17 samples.

Results

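Border macrophage scavenger and surface genes are the genes by which macrophages of the perivascular spaces and meninges are commonly told from microglia. The rows of the authors' deposited table whose symbol is Mrc1, Stab1, Pf4, F13a1, Dab2, Folr2, Siglec1, Cbr2, Lyve1 or Cd163 were taken, and all 10 were found among its 13769 genes. RNA sequencing was done on myeloid cells of the mouse brain, strain C57BL/6J, from populations that the labels call µ and TAµ and do not define. Transplanted TAµ (3 libraries) and transplanted µ (3 libraries) were taken from mice given BU and then GFP Lin- cells, 3 months after the transplant. P10 TAµ (8 libraries) came from mice at postnatal day 10, and adult control µ (3 libraries) from mice 5 months old. The labels do not spell out BU, and do not say whether the cells taken from transplanted mice carried GFP, so cells of the host may be among them. Both transplanted fractions have matching sample letters and may share mice. P10 TAµ and adult control µ received no transplant, and they differ from each other in age as well as in fraction. The labels name no batch, so group and batch cannot be told apart.

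Border macrophages lie along vessels and in the coverings of the brain, where they take up proteins, lipids and debris from the fluid around them. They carry scavenger and lectin receptors, many of which parenchymal microglia hold at low levels in the healthy adult brain. Some of them arise in the embryo, and others can be replaced from the bone marrow. The 10 genes have different jobs. Mrc1 encodes the mannose receptor, Stab1 the scavenger receptor stabilin-1, Cd163 the receptor for haptoglobin bound to haemoglobin, Lyve1 a hyaluronan receptor, Folr2 the folate receptor beta and Siglec1 a lectin that binds sialic acid. Dab2 encodes an adaptor that gathers receptors into clathrin-coated pits. Pf4 encodes a secreted chemokine first known from platelets, F13a1 the A subunit of coagulation factor XIII and Cbr2 a carbonyl reductase.

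The sequences before the starts of 4 of these genes are shown because they stand for the patterns described below: Mrc1, Stab1 and Pf4 were higher in transplanted TAµ than in every other group, and Folr2 is the contrast that was not. The sequences are RefSeq's on GRCm38.p6, 250 bases before the annotated start, read 5′ to 3′ on the strand of the gene. Capitals mark GAGGAA, the core of sites bound by the macrophage factor PU.1, or TGCTGA, part of the element bound by MAF proteins, on either strand (TTCCTC and TCAGCA on the other). The windows lie at chr2:14229164-14229413 (plus strand) for Mrc1, chr14:31168642-31168891 (minus strand) for Stab1, chr5:90772185-90772434 (plus strand) for Pf4 and chr7:101857191-101857440 (minus strand) for Folr2.
Mrc1: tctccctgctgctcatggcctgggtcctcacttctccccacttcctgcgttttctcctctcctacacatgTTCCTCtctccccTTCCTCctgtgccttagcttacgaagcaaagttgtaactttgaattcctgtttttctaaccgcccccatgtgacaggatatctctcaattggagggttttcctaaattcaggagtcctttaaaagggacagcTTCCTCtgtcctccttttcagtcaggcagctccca
Stab1: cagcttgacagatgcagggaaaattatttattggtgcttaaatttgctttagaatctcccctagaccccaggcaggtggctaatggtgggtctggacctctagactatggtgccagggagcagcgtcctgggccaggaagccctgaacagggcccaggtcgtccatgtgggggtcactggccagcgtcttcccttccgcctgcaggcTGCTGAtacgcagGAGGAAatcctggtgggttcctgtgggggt
Pf4: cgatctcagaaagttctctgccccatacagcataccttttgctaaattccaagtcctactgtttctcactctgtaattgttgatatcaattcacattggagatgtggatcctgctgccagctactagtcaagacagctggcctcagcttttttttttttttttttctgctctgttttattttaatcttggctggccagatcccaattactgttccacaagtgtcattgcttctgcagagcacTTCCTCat
Folr2: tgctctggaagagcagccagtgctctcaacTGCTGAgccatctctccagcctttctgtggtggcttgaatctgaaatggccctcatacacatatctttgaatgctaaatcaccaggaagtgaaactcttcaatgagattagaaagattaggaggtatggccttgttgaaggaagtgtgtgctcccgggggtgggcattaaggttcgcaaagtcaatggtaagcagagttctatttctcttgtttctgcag
The Mrc1 window held 3 matches to GAGGAA, Stab1 and Pf4 held 1 each, and this Folr2 window held 0. RefSeq windows were matched for 8 of the 10 genes, 11 windows in all. GAGGAA was in 7 of the 11 windows, of 6 genes, against 23.3% of the 32851 windows of all genes. TGCTGA was in 4 of the 11, against 16.1% of all windows. TGANTCA, the AP-1 motif, which can overlap TGCTGA, was in 1 of the 11, the second Folr2 window, against 6.75% of all windows. These matches describe the letters only, and nothing in the data measured binding.

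Levels are given on the log2 scale of normalized expression. They were derived from the average expression and fold changes of the authors' deposited table, with the standard error recovered from its p-values, and values per library were not analysed here. Whether they are scaled by gene length is not given, so single levels are compared between groups and not between genes. In a sum over a list, the genes with the highest levels weigh most. In bulk RNA, fewer cells of a type and less RNA per cell cannot be told apart. "Higher" and "lower" are kept for differences that pass 0.05 in the adjusted limma p of that table. F over the 4 groups passed that threshold for all 10 genes, against 52.2% of all genes per the authors' deposited table. The derived level was highest in transplanted TAµ for 8 of the 10, all but Folr2 and Lyve1, which were highest in P10 TAµ. It was lowest in adult control µ for 8, and in transplanted µ for Lyve1 and Cd163. Stab1 was not scarce even in its lowest group, adult control µ, at 7.84 ± 0.16.

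**Figure D1:**
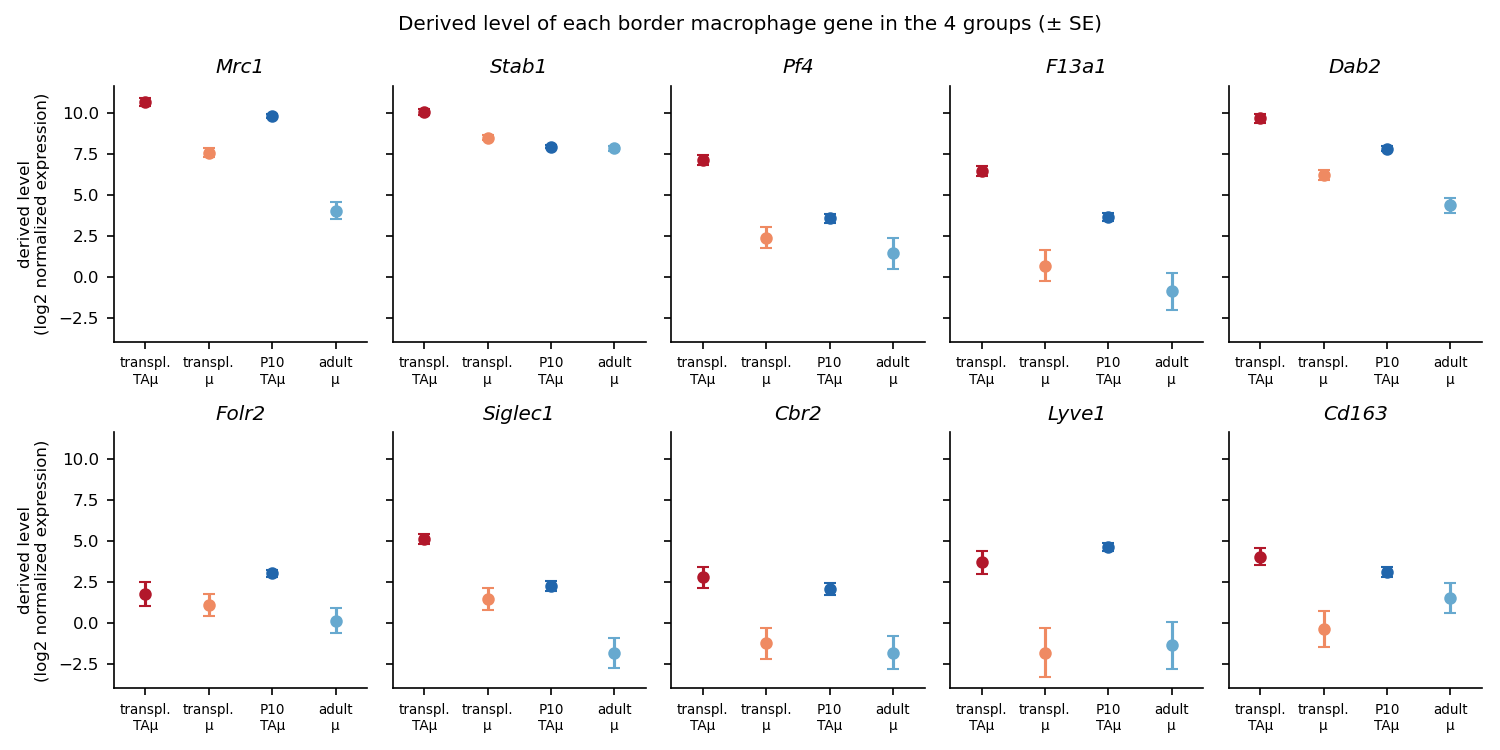
Derived level of each of the 10 genes (log2 normalized expression, ± SE) in transplanted TAµ (3 libraries), transplanted µ (3), P10 TAµ (8) and adult control µ (3). Points are group levels, so the spread of single libraries is not drawn. Mrc1 spans 10.68 in transplanted TAµ to 4.01 in adult control µ, and Stab1 spans 10.05 to 7.84 in the same groups.

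Within transplanted mice, the TAµ fraction was compared with the µ fraction. Transplanted TAµ was higher than transplanted µ in 8 of the 10 genes and lower in 0, while 3.56% of all genes were higher and 2.93% lower per the authors' deposited table. The median log2 fold change of the 10 was 3.85, against -0.02 over all genes, and all 10 had a positive sign. By limma at an unadjusted p under 0.05, 9 were higher and 0 lower.
Among the receptors, Mrc1 had a derived level of 10.68 ± 0.24 in transplanted TAµ and 7.56 ± 0.27 in transplanted µ, 8.69-fold higher (log2 3.12 ± 0.37, adjusted p = 7.82e-05 per the authors' deposited table). Stab1 stood at 10.05 ± 0.17 in transplanted TAµ and 8.47 ± 0.15 in transplanted µ, a log2 difference of 1.58 ± 0.22 (adjusted p = 0.000443 per the authors' deposited table). Both receptors were therefore well measured in both fractions, and the difference is several times its error. Siglec1 reached 5.12 ± 0.29 in transplanted TAµ, against 1.45 ± 0.68 in transplanted µ, higher by 3.67 ± 0.74 on the log2 scale (adjusted p = 0.00615 per the authors' deposited table). Cd163 was at 4.07 ± 0.52 in transplanted TAµ and -0.35 ± 1.10 in transplanted µ, higher by 4.41 ± 1.22 (adjusted p = 0.0371 per the authors' deposited table). Lyve1 was at 3.70 ± 0.68 in transplanted TAµ and -1.80 ± 1.47 in transplanted µ, a log2 difference of 5.50 ± 1.63 that missed the threshold by little (adjusted p = 0.0504 per the authors' deposited table). The hyaluronan receptor gene was so scarce in transplanted µ that the error of its level is more than 1 log2 unit.
Folr2 was the member with the smallest difference, at 1.78 ± 0.76 in transplanted TAµ and 1.11 ± 0.68 in transplanted µ. Its log2 fold change per the authors' deposited table was 0.66 ± 1.02 (adjusted p = 0.748), with a 95% interval of -1.48 to 2.81.
Dab2, the adaptor, was at 9.66 ± 0.27 in transplanted TAµ and 6.18 ± 0.30 in transplanted µ, 11.1-fold higher (log2 3.48 ± 0.40, adjusted p = 7.58e-05 per the authors' deposited table). F13a1 and Pf4 had the largest log2 fold changes among the called genes, though their error ranges overlap those of Cd163 and Cbr2. F13a1 was at 6.44 ± 0.29 in transplanted TAµ and 0.68 ± 0.97 in transplanted µ, higher by 5.77 ± 1.02 on the log2 scale (adjusted p = 0.00259 per the authors' deposited table), which ranked 21 of 13769 genes by fold change. Pf4 was at 7.11 ± 0.29 in transplanted TAµ and 2.37 ± 0.66 in transplanted µ, higher by 4.74 ± 0.72 (adjusted p = 0.000865 per the authors' deposited table). Cbr2 was at 2.79 ± 0.65 in transplanted TAµ and -1.24 ± 0.97 in transplanted µ, higher by 4.03 ± 1.17 (adjusted p = 0.0468 per the authors' deposited table). Its average log2 expression of 0.93 lies close to the table's first quartile of 0.88, so its size is uncertain.

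**Figure D2:**
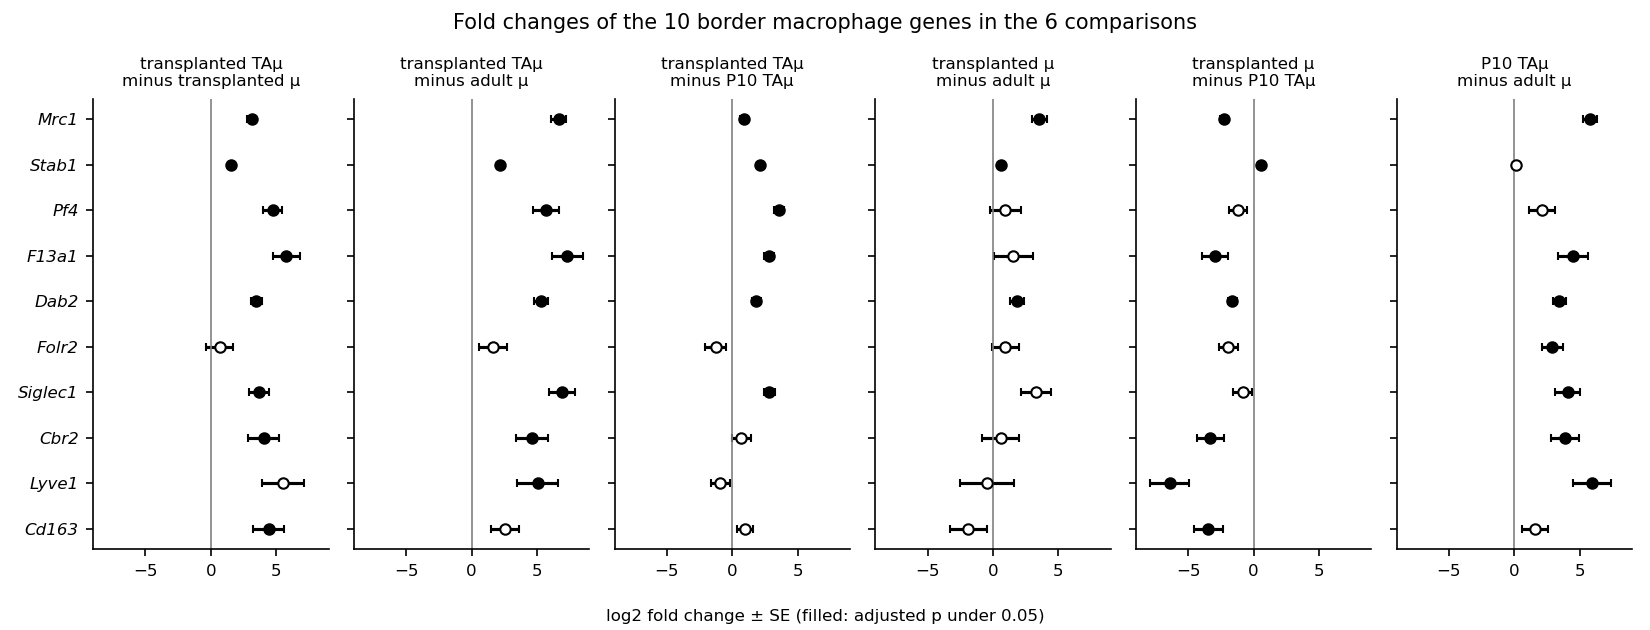
Log2 fold change of each gene in the 6 comparisons of the authors' deposited table, first-named group minus second, with the recovered SE; filled points passed adjusted p 0.05. In transplanted TAµ against transplanted µ every point lies right of 0 and 8 are filled, while in transplanted µ against adult control µ 3 are filled.

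Transplanted TAµ was next set against P10 TAµ, the fraction of the same name from young mice without a transplant. In this comparison 6 of the 10 genes were higher and 0 lower per the authors' deposited table, where 10.5% of all genes were higher and 15.3% lower. The median log2 fold change of the 10 was 1.41, against -0.33 over all genes, and 0 were lower by limma at an unadjusted p under 0.05. The genes divide by size here. Pf4 was at 7.11 ± 0.29 in transplanted TAµ and 3.56 ± 0.26 in P10 TAµ, 11.8-fold higher (log2 3.56 ± 0.39, adjusted p = 6.37e-06 per the authors' deposited table). F13a1 was higher by 2.82 ± 0.38 (adjusted p = 4.53e-05) and Siglec1 by 2.85 ± 0.41 (adjusted p = 9.22e-05) per the authors' deposited table. Stab1 stood at 10.05 ± 0.17 in transplanted TAµ and 7.94 ± 0.09 in P10 TAµ, higher by 2.11 ± 0.19 (adjusted p = 7.5e-07 per the authors' deposited table). For this gene the error is the smallest of the 10, and its p is the smallest of the 10 in the comparison. Dab2 was higher by 1.86 ± 0.31 (adjusted p = 0.000319) and Mrc1 by 0.88 ± 0.29 (adjusted p = 0.0335) per the authors' deposited table. Mrc1 was already at 9.81 ± 0.15 in P10 TAµ.
The other 4 genes did not pass. Cd163 differed by 0.96 ± 0.60 (adjusted p = 0.252), Cbr2 by 0.71 ± 0.74 (adjusted p = 0.504), Lyve1 by -0.92 ± 0.72 (adjusted p = 0.366) and Folr2 by -1.27 ± 0.79 (adjusted p = 0.250) per the authors' deposited table. The intervals of these differences are wide: that of Lyve1 runs from -2.44 to 0.60 and that of Folr2 from -2.94 to 0.40. In the same comparison 0 of 12 microglia markers were higher and 10 lower, and 4 of 13 monocyte markers were higher and 1 lower, per the authors' deposited table. Ccr2 was among the higher monocyte markers, with a log2 fold change of 2.53 ± 0.53 (adjusted p = 0.00225 per the authors' deposited table). The part of these marker shifts in the border macrophage values was not tested.

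In the µ fraction, transplanted cells were compared with adult control µ, to ask how far the µ cells of transplanted mice resemble those of an untreated adult. Of the 10 genes 3 were higher and 0 lower per the authors' deposited table, where 11.3% of all genes were higher and 10.5% lower. Mrc1 was at 7.56 ± 0.27 in transplanted µ and 4.01 ± 0.53 in adult control µ, 11.7-fold higher (log2 3.55 ± 0.59, adjusted p = 0.000784 per the authors' deposited table). Dab2 was at 6.18 ± 0.30 in transplanted µ and 4.35 ± 0.46 in adult control µ, higher by 1.82 ± 0.55 (adjusted p = 0.0257 per the authors' deposited table). Stab1 was at 8.47 ± 0.15 in transplanted µ and 7.84 ± 0.16 in adult control µ, higher by 0.63 ± 0.22 (adjusted p = 0.0488 per the authors' deposited table). The Stab1 call is at the edge: with fold changes centred on the median of all genes the difference was 0.44 (adjusted p = 0.161). The mannose receptor and the adaptor had the smallest adjusted p-values of the 10 in this fraction, and 0 of the 10 were lower by limma at an unadjusted p under 0.05.
Siglec1 was at 1.45 ± 0.68 in transplanted µ and -1.81 ± 0.93 in adult control µ, a log2 difference of 3.26 ± 1.15 that missed the threshold in the last digits (adjusted p = 0.05003 per the authors' deposited table). F13a1 differed by 1.57 ± 1.49 (adjusted p = 0.469), Pf4 by 0.96 ± 1.17 (adjusted p = 0.578), Folr2 by 0.96 ± 1.03 (adjusted p = 0.522) and Cbr2 by 0.58 ± 1.40 (adjusted p = 0.791) per the authors' deposited table. Lyve1 differed by -0.45 ± 2.06 (adjusted p = 0.894) and Cd163 by -1.87 ± 1.43 (adjusted p = 0.358) per the authors' deposited table. The 95% intervals differ in width: that of Siglec1 runs from 0.85 to 5.67, that of Folr2 from -1.20 to 3.12, that of Cd163 from -4.88 to 1.13 and that of Lyve1 from -4.78 to 3.88. Beside these genes, 7 of 12 microglia markers were higher and 0 lower, and 1 of 13 monocyte markers was higher and 0 lower, per the authors' deposited table. The part of these shifts was not tested.

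P10 TAµ was compared with adult control µ, a contrast in which age and fraction change together and cannot be told apart. In it 7 of the 10 genes were higher and 0 lower per the authors' deposited table, where 23.2% of all genes were higher and 12.5% lower. Lyve1 was at 4.62 ± 0.24 in P10 TAµ and -1.34 ± 1.44 in adult control µ, higher by 5.97 ± 1.46 (adjusted p = 0.00445 per the authors' deposited table). Mrc1 was at 9.81 ± 0.15 in P10 TAµ and 4.01 ± 0.53 in adult control µ, 55.5-fold higher (log2 5.80 ± 0.55, adjusted p = 8.2e-07 per the authors' deposited table). Folr2 was at 3.05 ± 0.22 in P10 TAµ and 0.15 ± 0.77 in adult control µ, higher by 2.90 ± 0.80 (adjusted p = 0.00959 per the authors' deposited table). This is the comparison of the 6 in which Folr2 passed. F13a1 (4.51 ± 1.16), Siglec1 (4.08 ± 0.97), Cbr2 (3.90 ± 1.07) and Dab2 (3.45 ± 0.48) were also higher in log2 fold change per the authors' deposited table. Pf4 differed by 2.14 ± 1.0 (adjusted p = 0.102) and Cd163 by 1.58 ± 0.97 (adjusted p = 0.211) per the authors' deposited table. Stab1 was at 7.94 ± 0.09 in P10 TAµ and 7.84 ± 0.16 in adult control µ, a difference of 0.10 ± 0.19 (adjusted p = 0.703 per the authors' deposited table), and -0.31 when centred on the median of all genes. With an interval of -0.29 to 0.49, a change of Stab1 as large as those of the other members was not seen between these groups. Beside these values, 5 of 12 microglia markers were higher and 2 lower, and 4 of 13 monocyte markers higher and 2 lower, per the authors' deposited table. Of 8 fibroblast and mural markers 5 were higher and 1 lower, and of 6 endothelial and lymphatic markers 2 were higher and 0 lower. The part of all these markers was not tested.

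The crossed comparisons complete the order. Against adult control µ, transplanted TAµ was higher in 8 of the 10 genes and lower in 0 per the authors' deposited table, where 16.7% of all genes were higher and 13.4% lower. F13a1 had the largest log2 fold change of the members, 7.34 ± 1.17 (adjusted p = 0.000275), followed by Siglec1 at 6.93 ± 0.97 and Mrc1 at 6.67 ± 0.57 per the authors' deposited table. Folr2 (1.62 ± 1.08, adjusted p = 0.269) and Cd163 (2.54 ± 1.06, adjusted p = 0.0768) did not pass per the authors' deposited table. By limma at an unadjusted p under 0.05, 0 of the 10 were lower against adult control µ in transplanted TAµ or in P10 TAµ. Against P10 TAµ, transplanted µ was higher in 1 gene and lower in 6 per the authors' deposited table, where 7.63% of all genes were higher and 12.6% lower. The gene that was higher was Stab1, by 0.53 ± 0.18 (adjusted p = 0.0420 per the authors' deposited table). Lower were Lyve1 (-6.42 ± 1.49), Cd163 (-3.45 ± 1.14), Cbr2 (-3.32 ± 1.03), F13a1 (-2.94 ± 1.0), Mrc1 (-2.24 ± 0.29) and Dab2 (-1.62 ± 0.34) per the authors' deposited table. F13a1 (adjusted p = 0.0652) and Cd163 (adjusted p = 0.0533) lost this call when fold changes were centred on the median of all genes. The 6 comparisons share libraries, so these counts are not independent of each other.

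Read by neighbouring groups in order of level, Mrc1 and Dab2 ran transplanted TAµ, P10 TAµ, transplanted µ, adult control µ, and each step passed the threshold. Stab1 ran transplanted TAµ, transplanted µ, P10 TAµ, adult control µ, and the last step did not pass. For F13a1 the step between transplanted µ and adult control µ did not pass. For Pf4 and Siglec1 transplanted TAµ stood above P10 TAµ, and no later step passed. For Cbr2, transplanted TAµ and P10 TAµ were not distinguished, and both stood above transplanted µ and adult control µ. Lyve1 had the same split for P10 TAµ, while for transplanted TAµ the call held against adult control µ and was missed against transplanted µ. No neighbouring step passed for Folr2 or Cd163.

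Whether transplantation went with the same change in both fractions was tested as the difference of the effects, (transplanted TAµ minus P10 TAµ) minus (transplanted µ minus adult control µ), in 13757 genes with standard errors recovered from that table. In this test 1 of the 10 genes was positive and 1 negative past an adjusted p of 0.05, against 3.76% and 9.62% of all genes, and the median of all genes was -0.50. Mrc1 had a difference of effects of -2.68 ± 0.66 (adjusted p = 0.0142): it was 1.84-fold higher in transplanted TAµ than in P10 TAµ and 11.7-fold higher in transplanted µ than in adult control µ. Stab1 had a difference of effects of 1.48 ± 0.29 (adjusted p = 0.00366): 4.31-fold higher in transplanted TAµ and 1.55-fold higher in transplanted µ, each against its control. The mannose receptor and stabilin-1 genes therefore differed in opposite directions. Dab2 had a difference of 0.03 ± 0.63 (adjusted p = 0.978), with an interval of -1.29 to 1.35. Pf4 had one of 2.60 ± 1.23 (adjusted p = 0.166) and Cd163 one of 2.83 ± 1.55 (adjusted p = 0.234), and the other 5 genes had adjusted p-values between 0.263 and 0.966. The controls differ in age, so age enters this difference and cannot be told apart from it. Of 12 microglia markers, 0 were positive and 10 negative in the same test, and the part of that shift in the Mrc1 and Stab1 values was not tested.

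**Figure D3:**
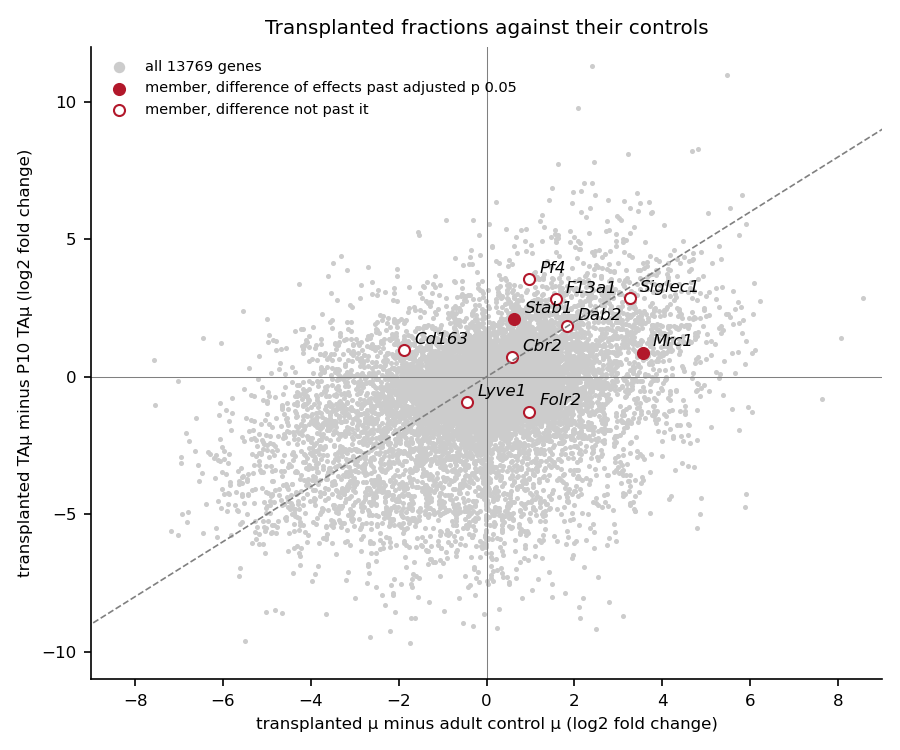
Log2 fold change of transplanted TAµ minus P10 TAµ (vertical) against that of transplanted µ minus adult control µ (horizontal) for all 13769 genes (grey) and the 10 genes (red, named); filled points passed the test of the difference. The dashed line marks equal effects: Mrc1 lies below it and Stab1 above it.

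Other genes typical of border macrophages were read beside the 10. Among them Cd36, Colec12, Blvrb and Maf also belong to lists read below. Of 28 listed, 23 were measured. In transplanted TAµ against transplanted µ, where 3.56% of all genes were higher and 2.93% lower, 12 were higher and 0 lower per the authors' deposited table. They included Ms4a7 (5.03 ± 0.48), Cp, the ferroxidase ceruloplasmin (3.74 ± 0.49), and Ms4a6c (2.84 ± 0.33), as log2 fold changes per the authors' deposited table. Against P10 TAµ, transplanted TAµ was higher in 11 and lower in 1 of the 23, where 10.5% of all genes were higher and 15.3% lower. The log2 fold change of Clec12a, a C-type lectin, was 7.82 ± 0.69 per the authors' deposited table. That of Igfbp4, which binds insulin-like growth factors, was -4.00 ± 0.47. In transplanted µ against adult control µ, where 11.3% of all genes were higher and 10.5% lower, 8 were higher and 0 lower. They included Nrp1, the neuropilin receptor (1.99 ± 0.37), and the transcription factor Maf (1.0 ± 0.17), as log2 fold changes per the authors' deposited table.

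The wider families of these genes were read between transplanted TAµ and transplanted µ. Of 15 measured other scavenger and endocytic receptors, 3 were higher, the scavenger receptor Msr1 (3.83 ± 0.50), Cd36 (3.70 ± 0.62) and Cxcl16 (2.03 ± 0.22), and 1 was lower, Mrc2 (-3.09 ± 0.56), per the authors' deposited table. Mrc2 is a paralogue of Mrc1 that takes up collagen, and the table thus placed the pair in opposite directions. Of 11 genes of haemoglobin and haem disposal, the route downstream of Cd163, 4 were higher and 0 lower per the authors' deposited table. They included Blvrb, a biliverdin reductase (1.68 ± 0.34), Hmox1, haem oxygenase (1.42 ± 0.34), and the ferritin chain gene Fth1 (1.31 ± 0.33), as log2 fold changes per the authors' deposited table. Of 18 endocytic adaptor and coat genes, the neighbours of Dab2, 2 were higher and 1 lower per the authors' deposited table. Of 7 other Siglec genes 0 were higher and 2 lower, and of 12 genes of folate handling 0 were higher and 1 lower per the authors' deposited table. By limma at an unadjusted p under 0.05, 0 Siglec genes and 1 folate gene were higher, and 0 genes of haem disposal or of the border macrophage list were lower. Of 18 regulators of the macrophage programme, 0 passed by limma per the authors' deposited table, and 0 higher and 2 lower had an unadjusted p under 0.05.

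**Figure D4:**
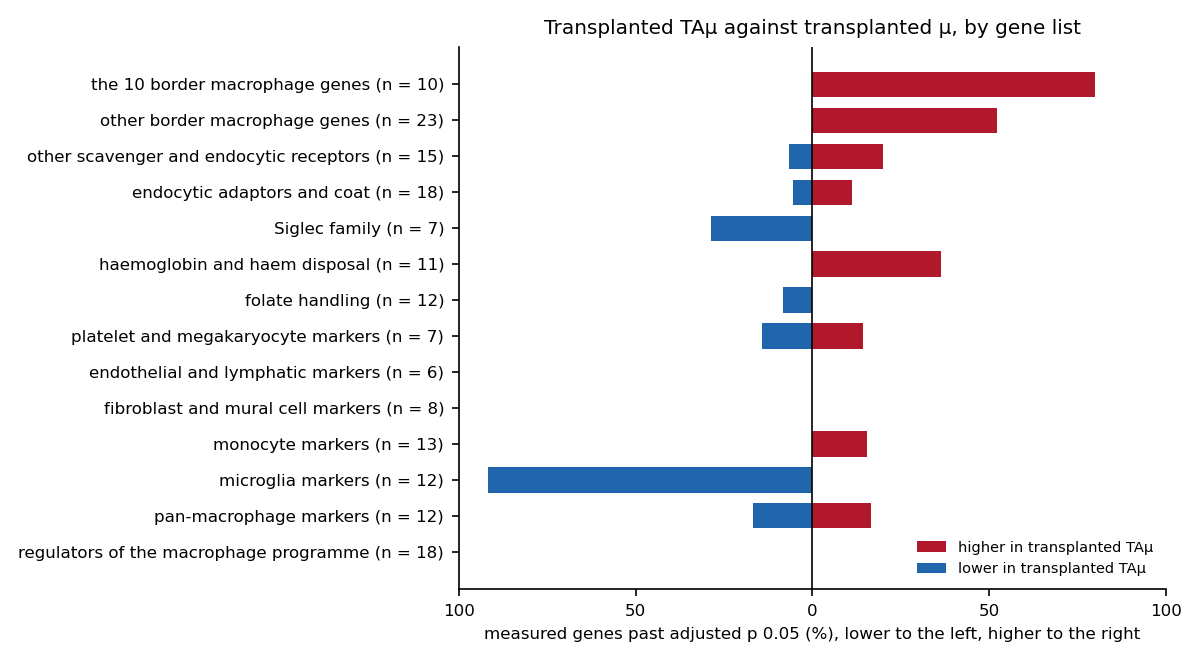
Share of the measured genes of each list past adjusted p 0.05 in transplanted TAµ against transplanted µ, lower to the left and higher to the right (percent, n measured in brackets). The 10 genes have 8 higher and 0 lower, and the microglia markers 0 higher and 11 lower of 12.

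Markers of other cells were read beside these results, since the fractions may hold more than one type. Of 12 microglia markers, 0 were higher and 11 lower in transplanted TAµ than in transplanted µ per the authors' deposited table. The log2 fold change was -3.31 ± 0.35 for the transcription factor Sall1 and -3.69 ± 0.42 for the sugar transporter Slc2a5. The log2 summed level of all 12 microglia markers was 13.32 in transplanted TAµ and 14.72 in transplanted µ. It was 14.36 in P10 TAµ and 13.81 in adult control µ. In transplanted TAµ the median level of the 12 was 9.16, with Slc2a5 at 4.60 and Sall1 at 5.87. The counts of 0 microglia and monocyte markers printed here and with the comparisons above were also 0 at an unadjusted p under 0.05. That p was from limma or, for the difference of effects, from its own test. In transplanted µ against P10 TAµ, 3 of 12 microglia markers were higher and 0 lower, with 1 lower at an unadjusted p under 0.05 by limma. Of all genes, 7.63% were higher and 12.6% lower there. Between transplanted TAµ and transplanted µ, 2 of 12 pan-macrophage markers were higher and 2 lower per the authors' deposited table. Of 13 monocyte markers 2 were higher and 0 lower per the authors' deposited table. These were Itga4, by 4.93 ± 0.61, and the lysozyme gene Lyz2, by 1.86 ± 0.25 on the log2 scale. The log2 summed level of the monocyte markers was 10.84 in transplanted TAµ, 8.87 in transplanted µ, 7.57 in P10 TAµ and 7.82 in adult control µ. Lyz2, which microglia also express, made up most of that sum (10.61 in transplanted TAµ), with 8.75 in transplanted µ, 7.35 in P10 TAµ and 7.64 in adult control µ. Itga4 was at 7.88 in transplanted TAµ, 2.95 in transplanted µ, 2.88 in P10 TAµ and -0.14 in adult control µ. Ccr2, the chemokine receptor of classical monocytes, was at 3.72 in transplanted TAµ, 3.35 in transplanted µ, 1.18 in P10 TAµ and 2.46 in adult control µ. S100a6 was at 3.02 in transplanted TAµ, 0.15 in transplanted µ, 0.43 in P10 TAµ and 0.87 in adult control µ. Plac8 was at -1.50 in transplanted TAµ, -3.05 in transplanted µ, 0.64 in P10 TAµ and -4.86 in adult control µ. Lyz2, Itga4, Ccr2 and S100a6 thus had their highest level in transplanted TAµ, and Plac8 in P10 TAµ. S100a6 and Plac8 were chosen after their values were seen. The sum was highest in the group where 8 of the 10 border macrophage genes were highest, and its part in their difference was not tested.
Pf4 and F13a1 are also genes of platelets and megakaryocytes. Of 14 other markers of that lineage 7 were measured, and between transplanted TAµ and transplanted µ 1 was higher, Nrgn (2.25 ± 0.52), and 1 lower, the platelet glycoprotein gene Gp9 (-6.82 ± 1.65), per the authors' deposited table. Their log2 summed level was 3.89 in transplanted TAµ, 4.88 in transplanted µ, 4.26 in P10 TAµ and 4.89 in adult control µ, with 6 of the 7 at a level below 0 in transplanted TAµ. Gp9 set most of that order, at -2.14 in transplanted TAµ, 4.68 in transplanted µ, 3.58 in P10 TAµ and 4.54 in adult control µ. Nrgn ran the other way, at 3.75 in transplanted TAµ, 1.49 in transplanted µ, 1.17 in P10 TAµ and 0.93 in adult control µ. The part of platelet RNA in the Pf4 and F13a1 values was not tested. Lyve1 and Stab1 are also genes of lymphatic and sinusoidal endothelium. Of 6 measured endothelial and lymphatic markers, 0 passed by limma between transplanted TAµ and transplanted µ, with 0 higher and 2 lower at an unadjusted p under 0.05 per the authors' deposited table. Their log2 summed level was 3.42 in transplanted TAµ, 5.57 in transplanted µ, 6.0 in P10 TAµ and 5.97 in adult control µ. Prox1 was the largest part of that sum, at 2.44 in transplanted TAµ, 4.91 in transplanted µ, 5.22 in P10 TAµ and 5.39 in adult control µ. In P10 TAµ against adult control µ, 2 of the 6 were higher and 0 lower per the authors' deposited table. Of all genes, 23.2% were higher and 12.5% lower there. The 2 higher markers were Tie1 (1.03 in P10 TAµ, -3.76 in adult control µ) and Cdh5 (2.35 and -1.99). The part of endothelial RNA in the Stab1 and Lyve1 values was not tested. Of 8 fibroblast and mural markers, 0 passed by limma between transplanted TAµ and transplanted µ per the authors' deposited table. At an unadjusted p under 0.05 by limma, 0 were higher and 1 lower. Against P10 TAµ, transplanted TAµ was lower in 5 of these 8 and in 3 of the 6 endothelial markers per the authors' deposited table. Of all genes, 10.5% were higher and 15.3% lower there. The sum of the fibroblast and mural markers was 1.34 in transplanted TAµ, 1.23 in transplanted µ, 4.26 in P10 TAµ and 3.29 in adult control µ on the log2 scale, and its part in the P10 values of Lyve1 and Folr2 was not tested.

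The genes whose 4-group profile lay closest to a member were sought among the 6885 genes of at least median expression, by the root mean square difference of centred log2 levels over the 4 groups. Closest to Mrc1 were Kank2 (0.145), Sept3 (0.715) and Clic4 (0.732). Closest to Stab1 were Tbc1d12 (0.0586), Fam214a (0.0997) and Tmem176a (0.101). Closest to Pf4 were the scavenger receptor gene Msr1 (0.332), Nnat (0.362) and Dab2 (0.676), the last itself one of the 10. The profile rests on 4 group values, which many genes can share.

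By GENCODE M21 on GRCm38, Mrc1 lies at chr2:14229392-14332057 on the plus strand and overlaps Mir511 on the same strand. Stab1 lies at chr14:31139013-31168641 on the minus strand and overlaps Nt5dc2 on the other. Dab2, at chr15:6299788-6440712, F13a1, at chr13:36867178-37050244, and Folr2, at chr7:101839988-101857194, overlap antisense RNA genes. Whether reads were counted by strand is not given in the sources used here, so reads of such partners cannot be told apart from those of the member. Pf4 (chr5:90772435-90773383), Siglec1 (chr2:131069220-131086765), Cbr2 (chr11:120729489-120732114), Lyve1 (chr7:110850607-110863239) and Cd163 (chr6:124304656-124330527) overlap no other annotated gene.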

How the data were processed

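RNA from 17 libraries was measured. Per the labels' protocols, 100 ng per sample was amplified (Ovation RNA-Seq System V2), built into libraries (Ovation Ultralow) and read as single ends of 50 cycles, with 30 M clusters on average. STAR 2.3.0, HTSeq 0.5.3, limma and mm10 are named by the submitters' processing notes. The sources used here give no normalization, gene filter or annotation. The design text speaks of triplicate mice, whereas the labels list 8 P10 libraries, which may not all be separate animals, so their spread may be partly technical.

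The authors deposited log2 fold changes for 6 comparisons and 1 average log2 expression per gene, per the file headers. The p-values, raw and Benjamini-Hochberg adjusted, were deposited with them and come from limma, per the file headers. The moderated F and the calls of 1, 0 or -1 are score columns deposited by the authors. Every call matched an adjusted p under 0.05. Values and depth per library were not analysed here, so limma could not be refitted, leave-one-out fits were not run, and the recovered standard errors are the precision at hand.

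The headers do not state the sign of the fold changes. With the group a header names first read as the positive one, all 18 proliferation genes were positive in P10 TAµ against adult control µ. Signs were then turned so that the group named first here is positive where higher. Standard errors came from fold change and p (18 degrees of freedom, found from F in 10340 genes), and from the adjusted p and its rank for p under 0.0001. Group variances added over comparisons to ratios of 0.999 to 1.001 (1st and 99th percentiles). Levels assume that the average is the mean over 17 libraries. Under this weighting the lower edge of transplanted TAµ levels (0.1 to 2 percentiles) spans 0.0722 log2, against 0.753 with equal group weights. The interaction used the recovered errors, without 12 genes lacking one, with Benjamini-Hochberg adjustment.

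The method was tested on simulated data for the interaction with 13769 genes, 200 of them changed. It gave 99.98% of standard errors within 1% of limma 3.58.1 and the same call for 100% of genes. Of genes changed 2-fold 1% were called, and of genes changed 4-fold 41%. All simulated libraries of a gene had the same spread, and only transplanted TAµ was changed. In the data the errors differ between groups of 3 libraries, as for Mrc1 with 0.53 in adult control µ and 0.24 in transplanted TAµ. The simulated rates of calling therefore need not hold for the data. Python 3.11.15, pandas 2.3.3, SciPy 1.17.1 and R 4.3.3 were used.

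The 10 genes and all other lists (15 in all) were chosen with earlier results of these data known. Named genes are the 10 members, up to 3 genes per list, direction and comparison with the smallest adjusted p, of which the text gives a part, and the 3 genes with profiles closest to Mrc1, Stab1 and Pf4. Alternatives were an adjusted p of 0.01, Bonferroni adjustment, a minimum absolute log2 fold change of 1, an expression filter at the first quartile, centring on the median fold change, and levels with equal group weights.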

Additional observations from a re-analysis of the deposited data

Results flagged for a closer look

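The difference of Mrc1 between transplanted mice and controls was not the same in both fractions. The controls are P10 TAµ and adult control µ, so age, BU and any batch cannot be told apart from the transplant here. The difference of effects, (transplanted TAµ minus P10 TAµ) minus (transplanted µ minus adult control µ), was -2.68 ± 0.66 on the log2 scale (adjusted p = 0.0142, Benjamini-Hochberg over 13757 genes). Mrc1 was above its control in both fractions in the authors' deposited table, by 0.88 ± 0.29 in TAµ and 3.55 ± 0.59 in µ. In the test of the difference, 1 of the 10 genes was positive and 1 negative. Of all genes 3.76% were positive and 9.62% negative, and their median was -0.50. The Mrc1 call did not hold at an adjusted p of 0.01 or with Bonferroni adjustment.

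For Stab1 the difference of effects went in the other direction, at 1.48 ± 0.29 (adjusted p = 0.00366, same test). Stab1 was above its control by 2.11 ± 0.19 in TAµ and 0.63 ± 0.22 in µ in the authors' deposited table. Age separates the controls of both fractions and cannot be told apart from this difference.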

How the results depend on the processing

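No paired analysis was possible because the table holds comparisons and no values per library; for the same reason leave-one-out fits were not run. The count of 6 genes called in transplanted TAµ against P10 TAµ stayed within 1.5 times under every alternative run. At an adjusted p of 0.01, the genes called numbered 1 instead of 3 in transplanted µ against adult control µ, 3 instead of 7 in transplanted µ against P10 TAµ and 1 instead of 2 for the interaction. With Bonferroni adjustment these were 0, 1 and 0, against 4 of 8 in transplanted TAµ against transplanted µ, 2 of 7 in P10 TAµ against adult control µ and 4 of 8 in transplanted TAµ against adult control µ. Centring turned the sign of 3 values, none of them called: Stab1 in P10 TAµ against adult control µ (-0.31), and the interactions of Siglec1 (0.10) and Lyve1 (0.036). With the expression filter 2 genes gained a call, Lyve1 in transplanted TAµ against transplanted µ (adjusted p = 0.0488) and Siglec1 in transplanted µ against adult control µ (adjusted p = 0.0489). Lyve1 gained the same call with centring (adjusted p = 0.0495), which also took the calls of Stab1 in transplanted µ against adult control µ and of F13a1 and Cd163 in transplanted µ against P10 TAµ. Centring also moved the split of all genes called higher and lower: 1073 and 1775 instead of 1557 and 1440 in transplanted µ against adult control µ, 2181 and 1434 instead of 1441 and 2100 in transplanted TAµ against P10 TAµ, 1874 and 2800 instead of 3195 and 1721 in P10 TAµ against adult control µ, 1958 and 1199 instead of 1051 and 1741 in transplanted µ against P10 TAµ, and 1003 and 624 instead of 517 and 1323 for the interaction. With equal group weights 36 of 40 member levels moved by less than their error. The cause of these changes was not tested.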
